A study of Drosophila melanogaster with 4 samples.

Results

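The expression of 10 genes of the glycolytic pathway, of the 16510 gene names listed in each table, was followed in testes of Drosophila melanogaster. They encode Pglym78 and Pglym87 (phosphoglycerate mutase), Gapdh1 and Gapdh2 (glyceraldehyde-3-phosphate dehydrogenase), Pgk (phosphoglycerate kinase), Ald (aldolase, now Ald1), Tpi (triosephosphate isomerase), Eno (enolase), PyK (pyruvate kinase) and Pgi (glucose-6-phosphate isomerase). They were chosen by name, and all 10 were found in all 4 tables. All 10 averaged 1 FPKM or more over the libraries, the minimum for testing. Of the 4 polyA RNA libraries, 2 came from flies of the genotype labelled Su(var)3-9, called mutant here, and 2 from wild-type flies. Each was made from 50 adult testes dissected from males 3 days old, kept at 23 °C in both genotypes. Su(var)3-9 encodes a histone methyltransferase of heterochromatin, and the labels do not name the allele that the mutant flies carried. The series calls the replicates of each genotype biological.

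Glycolysis splits glucose into pyruvate in the cytosol and yields ATP and NADH on the way. Upper steps trap and split the sugar (hexokinase, Pgi, phosphofructokinase, Ald, Tpi), and lower steps harvest energy (Gapdh, Pgk, Pglym, Eno, PyK). In Drosophila several of these steps have further gene copies, and Hex-t1, Hex-t2 and the paralogs of PyK are known for transcription in the testis. No other tissue was measured here, so restriction to the testis cannot be read from these values.

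FPKM are fragments per kilobase of transcript, scaled to the mapped total of the library, so levels of different genes can be set side by side. Judged by the deposited intervals, about 1446646 and 1468276 fragments stood behind the mutant-labelled libraries, against 3207717 and 3366719 for wild type, so both mutant-labelled libraries were shallower. Their summed FPKM was higher, with 1028898 and 1004211 against 851134 and 810704. Su(var)3-9 itself was listed at 0 FPKM in mutant replicate 1 and at 7.83 FPKM in mutant replicate 2, against 7.93 and 9.74 FPKM in wild-type testes, so its level does not set mutant replicate 2 apart. For this reason the groups are named by their labels. Whether the 0 of Su(var)3-9 in mutant replicate 1 means absence was not tested. In that library 15 genes were listed at 0 with 10 FPKM or more in every other library. Of 12 testis germline markers, nos was listed at 0 in all 4 libraries and the other 11 were above 0 in all of them. Accessory gland markers summed to 9.50 and 39.9 FPKM in mutant-labelled libraries, to 2578 FPKM in wild-type replicate 1 and to 4.42 FPKM in wild-type replicate 2. Their part in the differences between genotypes was not tested, and values without wild-type replicate 1 are given for PyK, for the mutase and hexokinase shares and for the calls among the 10 genes. In dissected tissue, fewer cells of a type and less RNA per cell cannot be told apart.

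Phosphoglycerate mutase, which moves the phosphate group of phosphoglycerate, was carried mainly by Pglym87. Pglym87 lies on 3R, from 12231645 to 12232729 on the minus strand (dm6), as a single exon of 1085 bases that overlaps no annotated gene. It stood at 612 and 571 FPKM in mutant-labelled libraries and at 419 and 386 FPKM in wild-type testes. Both mutant-labelled libraries lay above both wild-type libraries, and their 95% intervals of 575 to 648 and 536 to 606 FPKM did not meet those of the wild type, 401 to 437 and 370 to 403 FPKM. Pglym87 rose in mutant-labelled libraries, to 591 ± 28.9 FPKM against 403 ± 22.9 FPKM (SD, n = 2 each; log2 fold change 0.55, SE 0.07, limma adjusted p = 0.0176). Its log2 fold change was smaller but still passed under scaling to the FPKM sum (0.26, limma adjusted p = 0.0424), quantile normalization (0.31, limma adjusted p = 0.0336) and removal of the length trend (0.36, limma adjusted p = 0.0395). It held the highest level of the 10 genes in every library, with 97.9% of tested genes below it in each mutant-labelled library, against 97.3% and 97.0% in the wild-type libraries.

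Its paralog Pglym78 lies on the plus strand of 3R, from 29148248 to 29149901, with 3 exons, and shares 6 exon bases with eIF2D. It stood at 24.3 FPKM in mutant replicate 1 (95% interval 16.9 to 31.7) and was listed at 0 in mutant replicate 2, against 12.0 and 10.3 FPKM in wild-type testes. Mutant-labelled libraries thus lay on both sides of the wild type. An estimated 43.0 fragments stood behind the value of mutant replicate 1. At that depth the level of wild-type replicate 2 would correspond to about 18.2 fragments. Whether the 0 means absence was not tested, and it is not read as absence here. In mutant replicate 2, 21 genes were listed at 0 with 10 FPKM or more in every other library. Among them was mRpL16, a mitochondrial ribosomal protein gene named after its values were seen. Mutant replicate 1 and wild-type replicates 1 and 2 had 15, 5 and 12 such genes. No difference between genotypes passed for Pglym78 (limma adjusted p = 0.616), and without mutant replicate 2 the direction turned to higher (log2 fold change 1.06, limma adjusted p = 0.0864).

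Pglym87 exceeded Pglym78 by 25.2 times in mutant replicate 1, against 35.01 and 37.6 times in the wild-type libraries, and no ratio could be formed in mutant replicate 2. On the log2(FPKM + 1) scale the ratio was higher by 1.82 in mutant-labelled libraries, with the listed 0, and lower by 0.46 without that library. The added constant sets the first value, which was 3.40 with a constant of 0.1 and 0.96 with 5. The exact permutation test gave p = 1, two-sided, where 2 against 2 libraries cannot go below 0.333. Another gene of this step, CG7059, stood at 158 and 159 FPKM in mutant-labelled libraries, against 115 and 124 FPKM in wild-type testes. CG7059 rose (log2 fold change 0.40, SE 0.07, limma adjusted p = 0.0345), a call that did not hold under scaling to the FPKM sum (0.11, limma adjusted p = 0.419), quantile normalization (0.23, limma adjusted p = 0.162) or removal of the length trend (0.24, limma adjusted p = 0.114). The 3 genes together came to 794 and 730 FPKM in mutant-labelled libraries, against 546 and 521 FPKM in wild-type testes. Pglym87 made up 77.1% and 78.3% of this sum in mutant-labelled libraries and 76.8% and 74.2% in the wild type. The mean share was higher by 2.21 percentage points, close to the spread between libraries (77.7% ± 0.823 against 75.5% ± 1.84, SD, n = 2 each), and by 0.909 to 3.51 points with 1 library left out, lowest without wild-type replicate 2 and highest without wild-type replicate 1. A single scaling factor per library leaves such shares as they are. After quantile normalization the share of Pglym87 was higher by 1.06 points, and after removal of the length trend by 1.80. Whether reads were shared between the paralogs was not tested.

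Glyceraldehyde-3-phosphate dehydrogenase, which makes NADH, had both gene copies at moderate levels. Gapdh1, on 2R with 1 exon of 1480 bases, stood at 36.2 and 35.6 FPKM in mutant-labelled libraries, against 23.9 and 21.9 FPKM in wild-type testes. The groups did not overlap, and Gapdh1 rose (35.9 ± 0.431 against 22.9 ± 1.38 FPKM, SD, n = 2 each; log2 fold change 0.63, SE 0.10, limma adjusted p = 0.0276). Its call did not hold under scaling to the FPKM sum (0.34, limma adjusted p = 0.0783) or after removal of the length trend (0.49, limma adjusted p = 0.0602). Gapdh1 had 68.3% and 68.8% of tested genes below it in mutant-labelled libraries, against 60.3% and 59.6% in the wild type.

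Gapdh2, on X from 15868145 to 15869661, plus strand, with 2 exons, stood at 40.8 and 50.5 FPKM in mutant-labelled libraries, against 36.0 and 29.6 FPKM in wild-type testes. Both mutant-labelled libraries lay above both wild-type libraries, but the 95% interval of mutant replicate 1 (31.9 to 49.8 FPKM) met that of wild-type replicate 1 (30.6 to 41.4 FPKM). The difference did not pass (log2 fold change 0.46, SE 0.17, limma adjusted p = 0.131). As a ratio of FPKM, Gapdh2 to Gapdh1 was 1.13 and 1.42 in mutant-labelled libraries and 1.51 and 1.35 in the wild type, so the ranges overlapped. On the log2(FPKM + 1) scale this ratio averaged 0.33 ± 0.23 against 0.49 ± 0.11 (SD, n = 2 each), a difference of -0.16 with p = 0.667 in the exact permutation test, two-sided. The difference was -0.0003 without mutant replicate 1 and -0.32 without mutant replicate 2. The 2 levels were close to each other, with Gapdh2 at 53.0% and 58.7% of their sum in mutant-labelled libraries and 60.1% and 57.5% in the wild type. Whether reads were shared between Gapdh1 and Gapdh2 was not tested.

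**Figure D1:**
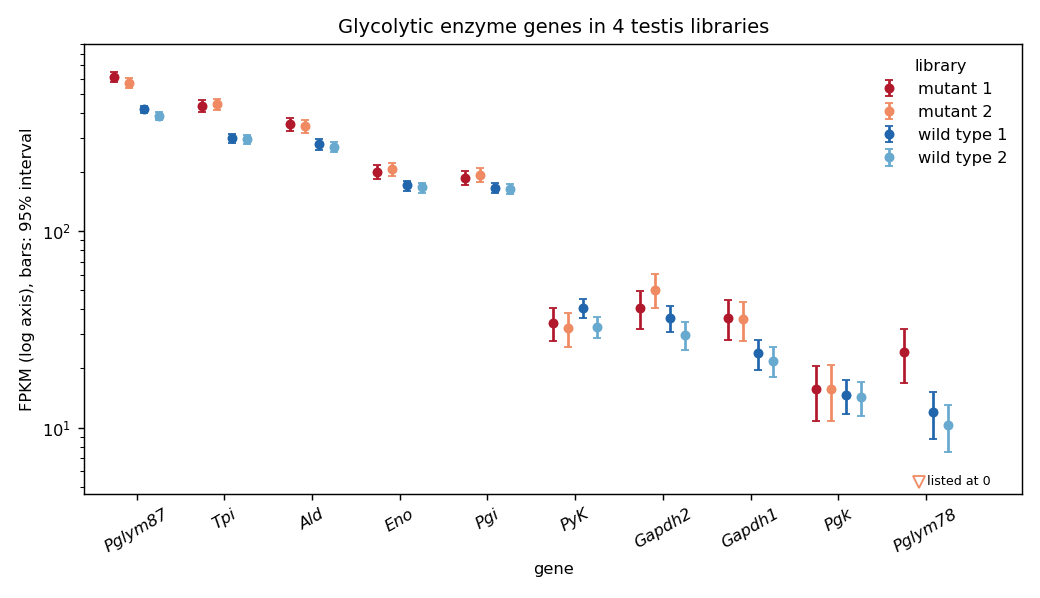
Levels of the 10 enzyme genes in each library, in FPKM on a log axis, with the deposited 95% interval as bars and genes in order of their wild-type mean. Pglym87, Tpi, Ald, Eno and Pgi lie at 164.5 FPKM or more in all 4 libraries and the other genes at 50.5 FPKM or less, and the open triangle marks Pglym78 listed at 0 in mutant replicate 2.

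The upper steps that split the sugar were among the highest of the 10 genes. Tpi, which interconverts the triose phosphates and lies on 3R from 30132981 to 30134599 (minus strand, no overlapping gene), stood at 437 and 444 FPKM in mutant-labelled libraries, against 297 and 295 FPKM in wild-type testes. Each pair of libraries was close together and the groups lay far apart relative to that spread. Tpi rose with the smallest adjusted p of the 10 genes (441 ± 5.0 against 296 ± 1.81 FPKM, SD, n = 2 each; log2 fold change 0.57, SE 0.05, limma adjusted p = 0.00996). Under scaling to the FPKM sum its log2 fold change was 0.28 (limma adjusted p = 0.0410), and under quantile normalization it was 0.26 and did not pass (limma adjusted p = 0.0554).

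Ald, which cleaves fructose bisphosphate, is transcribed from the minus strand of 3R, from 26254069 to 26261591, where the antisense RNA gene CR44321 overlaps 8.87% of its exon bases. The labels do not say whether the authors' counting used strand, so reads of these 2 genes cannot be told apart there. Ald stood at 352 and 343 FPKM in mutant-labelled libraries, against 278 and 270 FPKM in wild-type testes. It rose as deposited (347 ± 6.24 against 274 ± 5.59 FPKM, SD, n = 2 each; log2 fold change 0.34, SE 0.06, limma adjusted p = 0.0267), while its log2 fold change was 0.05 under scaling to the FPKM sum (limma adjusted p = 0.544) and -0.01 under quantile normalization (limma adjusted p = 0.950). Its place among the tested genes hardly differed, with 95.03% and 95.1% of them below it in mutant-labelled libraries and 95.1% in each wild-type library.

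Pgi, which turns glucose 6-phosphate into fructose 6-phosphate and lies on 2R, stood at 187 and 194 FPKM in mutant-labelled libraries, against 166 and 165 FPKM in wild-type testes. The groups did not overlap, but the difference did not pass (log2 fold change 0.21, SE 0.06, limma adjusted p = 0.0913), and its sign turned under scaling to the FPKM sum (-0.08) and quantile normalization (-0.05). Pgi and Eno were neighbours in level in both genotypes, and their 95% intervals overlapped.

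Of the lower steps, Eno, which makes phosphoenolpyruvate, lies on 2L from 1724768 to 1729636 on the minus strand and shares 9.74% of its exon bases with Rrp40 on the other strand. It stood at 200.5 and 207 FPKM in mutant-labelled libraries, against 171 and 167 FPKM in wild-type testes. The difference missed the threshold (log2 fold change 0.27, SE 0.06, limma adjusted p = 0.0530), and passed with median scaling (limma adjusted p = 0.0450), after removal of the length trend (limma adjusted p = 0.0471) and with a minimum of 5 FPKM (limma adjusted p = 0.0468). Under scaling to the FPKM sum it was -0.02 (limma adjusted p = 0.829).

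Pgk, which makes ATP, lies on 2L from 2746880 to 2753068 and shares 65 exon bases with neighbouring genes. It stood at 15.7 and 15.8 FPKM in mutant-labelled libraries, against 14.6 and 14.3 FPKM in wild-type testes, with no overlap of the groups but a difference inside every 95% interval (log2 fold change 0.12, SE 0.12, limma adjusted p = 0.507; -0.16 under scaling to the FPKM sum). PyK, which makes pyruvate and a further ATP and lies on 3R from 22367536 to 22372746, stood at 34.1 and 32.0 FPKM in mutant-labelled libraries, against 40.5 and 32.5 FPKM in wild-type testes. Its groups overlapped (log2 fold change -0.13, SE 0.14, limma adjusted p = 0.546). Its higher wild-type value came from replicate 1, the library with 2578 FPKM of accessory gland markers, and without it the log2 fold change of PyK was 0.02 (limma adjusted p = 0.935). Under scaling to the FPKM sum it was -0.42 (limma adjusted p = 0.0830). The part of those markers in the value was not tested.

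Counted together, 4 of the 10 genes (Pglym87, Gapdh1, Ald and Tpi) were called higher and none lower, and 7 had an unadjusted limma p under 0.05. Of all 10784 tested genes, 11.4% were called higher and 8.67% lower, 20.1% in either direction. An unadjusted limma p under 0.05 was found for 3989 of them, and for 1157 of the 1818 with a mean of 100 FPKM or more. Among the called genes 56.8% were higher as deposited, 46.4% after quantile normalization, 64.7% after median scaling and 22.4% after scaling to the FPKM sum. The median log2 fold change of the 10 genes was 0.30, against -0.01 for all tested genes. Level has to be read beside this, because 5 of the 10 genes had a mean of 100 FPKM or more. Of these 5, Pglym87, Ald and Tpi were called higher, while 37.8% of the 1818 tested genes at that level were called higher and 5.72% lower, and the medians were 0.34 and 0.27. Of the 5 genes from 10 to under 100 FPKM, Gapdh1 was called higher, where 8.93% of 4444 tested genes at that level were. Both mutant-labelled libraries lay above both wild-type libraries for 8 of the 10 genes as deposited, against 32.2% of all tested genes and 63.9% of those at 100 FPKM or more. The reverse order was found for none of the 10, against 32.7% of all tested genes. With scaling to the FPKM sum, added once the values were known, the median of all tested genes moved to -0.27 and that of the 10 genes to 0.01. The difference between these medians was 0.31 as deposited, 0.29 after that scaling and 0.07 after quantile normalization. Under scaling to the FPKM sum 2 genes were called higher (Pglym87 and Tpi), against 588 of all 10784 tested genes. Under quantile normalization 2 were called higher (Pglym87 and Gapdh1), against 849 of all tested genes. With any 1 of the 4 libraries left out, 1 group held a single library, so passing or not passing there cannot be read for these genes in particular. The log2 fold change of Tpi then lay between 0.56 and 0.58, that of Pglym87 between 0.50 and 0.61. Without a variance trend none of the 10 genes passed, with 4 at an unadjusted limma p under 0.05 and Tpi at a limma adjusted p of 0.0532. Of all 10784 tested genes, 494 were called higher and 609 lower without the trend, and 3748 had an unadjusted limma p under 0.05.

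**Figure D2:**
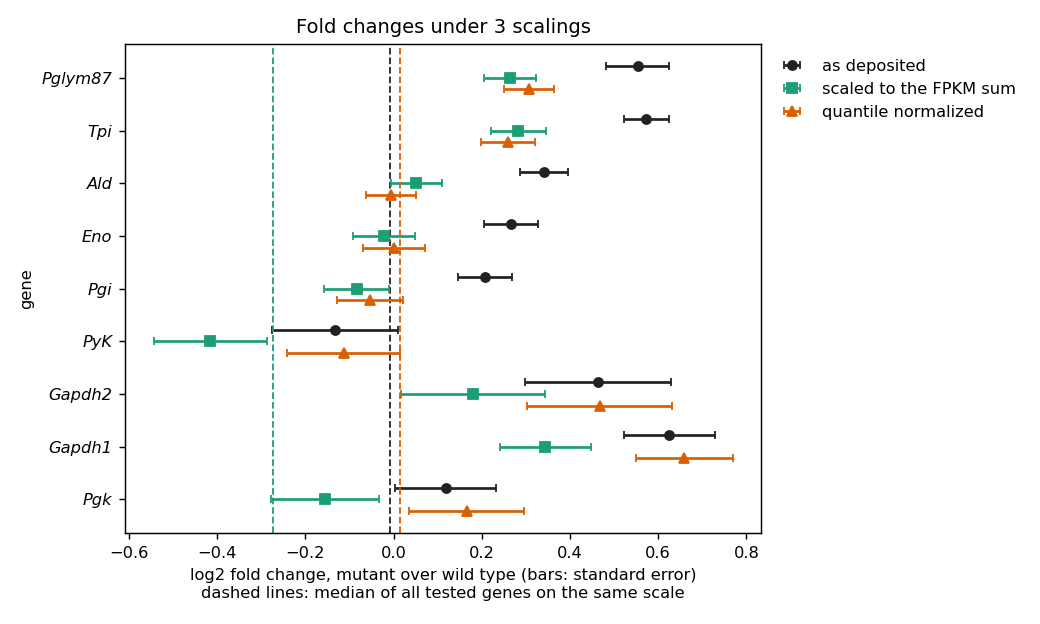
Log2 fold change of mutant-labelled libraries over the wild-type libraries for 9 enzyme genes, with the limma standard error as bars, under 3 scalings, and the median of all tested genes on each scale as a dashed line. Pglym87, Tpi, Gapdh1 and Gapdh2 stay above 0 on all 3 scales, Ald and Eno lie near 0 after scaling to the FPKM sum and after quantile normalization, and Pgi is below 0 on both, while Pgk is below 0 only on the scale of the FPKM sum. Pglym78 is left out, as it was listed at 0 in a library.

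Relative amounts among the 10 genes are left as they are by a single scaling factor per library; they were not recomputed after quantile normalization, which moves genes of different levels unequally. Pglym87 made up 31.5% and 30.2% of their summed FPKM in mutant-labelled libraries, against 28.7% and 27.8% in the wild type. Tpi made up 22.5% and 23.5%, against 20.4% and 21.2%. These shares were higher and did not overlap, and Gapdh1 showed the same on a smaller scale (1.87% and 1.88%, against 1.64% and 1.58%). The shares of Ald, Eno, Pgi, PyK and Pgk were lower without overlap, with Pgi at 9.66% and 10.3% in mutant-labelled libraries, against 11.4% and 11.8% in the wild type. Shares of a sum are tied to each other, so a higher share of one gene lowers those of the rest. As deposited FPKM, both mutant-labelled libraries lay above both wild-type libraries for 32.2% of all tested genes and below both for 32.7%. Groups of 2 libraries thus often separate, and the separation of these shares is not read as particular to these genes. These shares were not tested, since the exact permutation test of 2 against 2 libraries cannot give a p below 0.333.

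The levels fell into a high group and a low group in both genotypes. In the wild type the order was Pglym87, Tpi, Ald, Eno and Pgi, then PyK, Gapdh2, Gapdh1, Pgk and Pglym78. In mutant-labelled libraries Gapdh2 and Gapdh1 stood above PyK. In each mutant-labelled library the 95% interval of Gapdh1 overlapped those of Gapdh2 and PyK. In the wild type the intervals of PyK and Gapdh2 overlapped in both libraries, those of Gapdh2 and Gapdh1 in replicate 2 alone, and those of PyK and Gapdh1 in neither. Gapdh2 was above Gapdh1 in all 4 libraries. Half-widths of the 95% intervals were 5.99% and 6.05% of the value for Pglym87 in mutant-labelled libraries, against 4.35% and 4.38% in the wild type. For Pgk they were 31.6% and 31.4%, against 19.8% and 19.5%, on an estimated 39.9 and 40.6 fragments in mutant-labelled libraries and 102 and 105 in the wild type.

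Of the 6 steps with more than 1 gene, only the Gapdh step was covered by the 10 genes alone. In the pyruvate kinase step PyK made up 2.99% and 2.92% of the sum of 6 genes in mutant-labelled libraries and 3.75% and 2.99% in the wild type. CG12229 held the largest share, with 38.0% and 36.3% against 37.7% and 38.6%, at 433 and 398 FPKM in mutant-labelled libraries and 407 and 420 FPKM in wild-type testes. CG2964 stood at 207 and 199 FPKM in mutant-labelled libraries, against 138 and 136 FPKM in wild-type testes, and rose (log2 fold change 0.56, SE 0.06, limma adjusted p = 0.0142; 0.27 and 0.0546 under scaling to the FPKM sum). Its share was 18.2% and 18.1%, against 12.8% and 12.5%. The mean share was higher by 5.50 percentage points, by 5.74 after quantile normalization and by 4.73 after removal of the length trend. CG7069 moved the other way in share, with 22.9% and 23.7% against 27.1% and 27.2%, at 260 FPKM in both mutant-labelled libraries and 293 and 296 FPKM in wild-type testes (log2 fold change -0.18, SE 0.05, limma adjusted p = 0.0909). CG7069 passed as lower under scaling to the FPKM sum (-0.47, limma adjusted p = 0.0186) and quantile normalization (limma adjusted p = 0.0163). CG7362, CG11249 and CG12229 did not pass, at log2 fold changes of 0.21, -0.15 and 0.01. Under scaling to the FPKM sum CG7362 and CG12229 turned to -0.08 and -0.28, and CG11249 passed as lower (limma adjusted p = 0.0310). The step as a whole differed little, with 1138 and 1097 FPKM in mutant-labelled libraries against 1079 and 1088 FPKM in wild-type testes.

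Phosphoglycerate kinase was held mainly by a paralog. CG9961 stood at 163 and 132 FPKM in mutant-labelled libraries, against 125 and 157 FPKM in wild-type testes, and made up 91.2% and 89.3% of the sum with Pgk, against 89.5% and 91.7%. Its groups overlapped (log2 fold change 0.07, SE 0.17, limma adjusted p = 0.809), and its sign turned under scaling to the FPKM sum (-0.22). Aldolase was shared almost evenly. CG5432, now Ald2, stood at 280 and 324 FPKM in mutant-labelled libraries, against 248 and 249 FPKM in wild-type testes, and did not pass (log2 fold change 0.28, SE 0.09, limma adjusted p = 0.109; -0.01 under scaling to the FPKM sum). Ald held 55.7% and 51.5% of the aldolase sum in mutant-labelled libraries and 52.9% and 52.0% in the wild type.

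Hexokinase, the entry step, was held mainly by Hex-t2. It stood at 565 and 564 FPKM in mutant-labelled libraries, against 405 and 393 FPKM in wild-type testes, and rose (log2 fold change 0.50, SE 0.05, limma adjusted p = 0.0120; 0.21 and 0.0597 under scaling to the FPKM sum). Its share of 4 hexokinase genes was 84.8% and 85.3% in mutant-labelled libraries, against 75.6% and 79.3% in the wild type. Hex-A stood at 42.9 and 47.5 FPKM, against 68.9 and 49.4 FPKM (log2 fold change -0.36, SE 0.19, limma adjusted p = 0.250), and Hex-t1 at 57.5 and 49.3 FPKM, against 57.1 and 50.0 FPKM. Hex-C stood at 1.26 and 0.801 FPKM, against 4.92 and 3.25 FPKM (log2 fold change -1.31, limma adjusted p = 0.0577), and passed as lower under scaling to the FPKM sum (limma adjusted p = 0.0338). The share of Hex-t2 was higher by 7.56 percentage points with all libraries and by 5.71 without wild-type replicate 1. It was higher by 5.42 points after quantile normalization and by 6.67 after removal of the length trend.

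**Figure D3:**
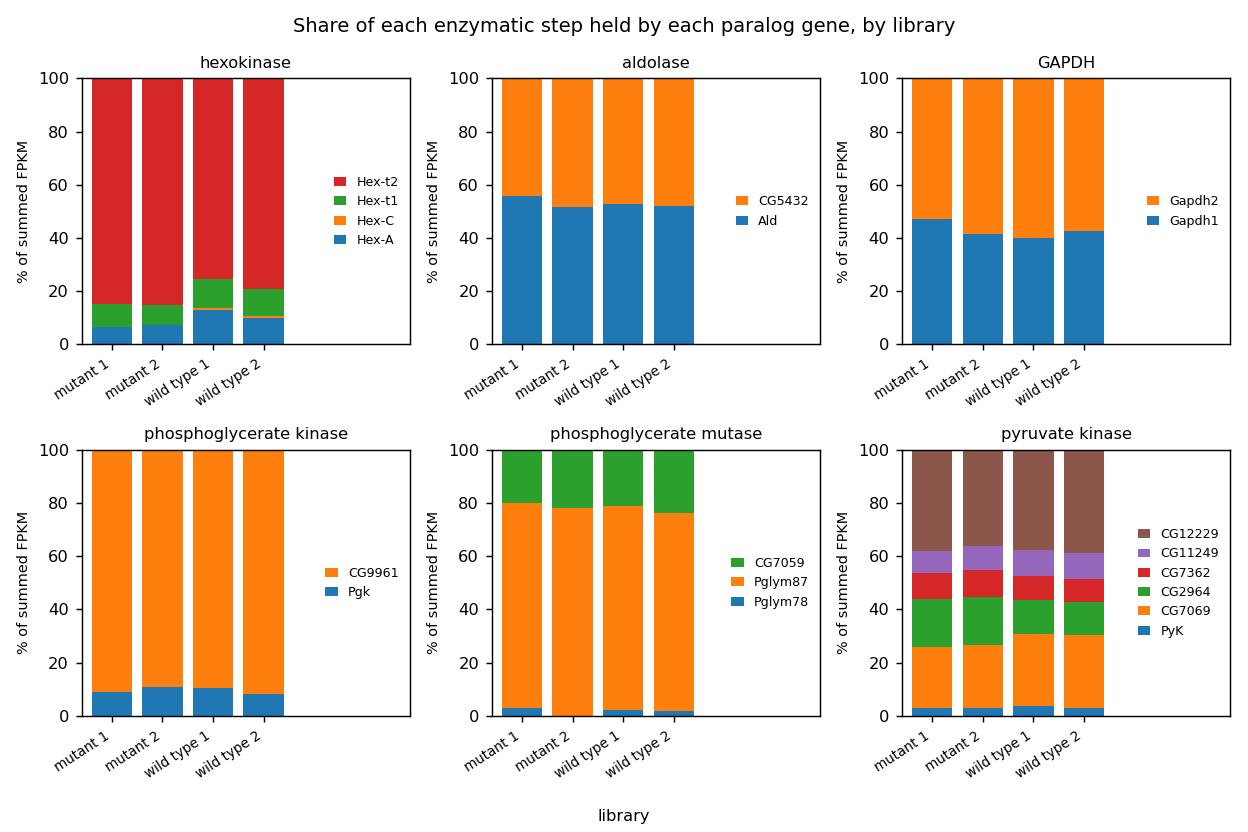
Share of the summed FPKM of each enzymatic step held by each of its genes, in percent, with a stacked bar for each library and mutant-labelled libraries on the left. Hex-t2, CG9961 and Pglym87 hold most of their steps, PyK holds between 2.92% and 3.75% of pyruvate kinase, and Gapdh and aldolase are divided nearly evenly between their genes.

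Among the single-gene steps, Pfk, the phosphofructokinase gene that controls entry into glycolysis, stood at 208 and 213 FPKM in mutant-labelled libraries, against 211 and 229 FPKM in wild-type testes (log2 fold change -0.06, SE 0.07, limma adjusted p = 0.572). Its groups overlapped, and its value was 0.958 times the wild type, beside 1.49 times for Tpi. The counterpart of Pfk in the reverse direction, fbp, stood at 1.64 and 3.20 FPKM, against 1.44 and 1.93 FPKM (limma adjusted p = 0.558). As whole steps in FPKM, mutase was 1.43 times, Gapdh 1.46 times, hexokinase 1.29 times and aldolase 1.24 times the wild type, and pyruvate kinase 1.03 times. These ratios rest on the deposited scale.

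Neighbouring pathways were read from lists chosen with earlier results of these data known. Of 10 testis paralogs, 3 were called higher (Hex-t2, CG2964 and CG7059), none was called lower and 6 had an unadjusted limma p under 0.05, with a median log2 fold change of 0.14. The 3 were among 9 paralogs at 100 FPKM or more, a level at which 37.8% of all tested genes were called higher. At that level 1157 of 1818 tested genes had an unadjusted limma p under 0.05, as had 3989 of 10784 at any level. Of 12 tested pyruvate and lactate genes, 5 were called higher and none lower, and 7 had an unadjusted limma p under 0.05, with a median of 0.45. All 5 were among the 7 at 100 FPKM or more, against the same 37.8%, and 11.4% of all tested genes were called higher at any level. CG32832, a predicted mitochondrial pyruvate carrier gene, stood at 760 and 751 FPKM in mutant-labelled libraries, against 502 and 486 FPKM in wild-type testes. It rose (log2 fold change 0.61, SE 0.05, limma adjusted p = 0.00958), also under scaling to the FPKM sum (0.32, limma adjusted p = 0.0219). CG7024 and CG11876, genes of the pyruvate dehydrogenase that feeds the citric acid cycle, rose by 0.51 and 0.56 on the log2 scale (limma adjusted p = 0.0138 and 0.0139). CG13334, a lactate dehydrogenase-like gene, rose by 0.52 (limma adjusted p = 0.0314), and the fifth, Mpc1, named after its value was seen, rose by 0.40 (limma adjusted p = 0.0400). These 4 had log2 fold changes of 0.21, 0.27, 0.23 and 0.11 under scaling to the FPKM sum and did not pass there. ImpL3, the lactate dehydrogenase gene now called Ldh and also named after its values were seen, stood at 29.1 and 23.6 FPKM, against 16.6 and 18.4 FPKM (log2 fold change 0.56, SE 0.15, limma adjusted p = 0.0761).

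In the other lists, which were shorter, fewer genes passed in number, where 11.4% of all tested genes were called higher and 8.67% lower. Of 5 glycerol phosphate shuttle genes, which carry cytosolic reducing power to mitochondria, CG7311 (now Gpo3) rose by 0.23 on the log2 scale (limma adjusted p = 0.0486), a call that passed under none of the other scalings and whose sign turned under scaling to the FPKM sum (-0.06) and quantile normalization (-0.04). Of 5 pentose phosphate genes, CG8036, a transketolase gene, and Pgd rose by 0.40 and 0.70 (limma adjusted p = 0.0259 and 0.0479), and did not pass under scaling to the FPKM sum (0.11 and 0.42, limma adjusted p = 0.365 and 0.103). Pgd, the 6-phosphogluconate dehydrogenase gene, stood at 33.6 and 27.0 FPKM, against 19.0 and 17.4 FPKM. Of 8 sugar supply genes, Treh, which cleaves the blood sugar trehalose, fell to 80.6 and 84.0 FPKM in mutant-labelled libraries, against 132 and 155 FPKM in wild-type testes (log2 fold change -0.79, SE 0.11, limma adjusted p = 0.0190), and passed as lower under every scaling tried. Over the 6 lists, 11 of 44 tested genes were called higher and 1 lower, against 11.4% and 8.67% of all tested genes, with a median of 0.26. At 100 FPKM or more, 10 of 23 were called higher and 1 lower, against 37.8% and 5.72% of all tested genes at that level, so the count in abundant genes lay near the background. Of the 44, 21 had an unadjusted limma p under 0.05, against 3989 of all 10784 tested genes. With any 1 of the 4 libraries left out, 1 group held a single library, so calls there cannot be read for these lists in particular. Under scaling to the FPKM sum 1 was called higher and 5 lower, against 588 and 2042 of all 10784 tested genes. Under quantile normalization 4 were called higher and 2 lower, against 849 and 982 of all tested genes.

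Muscle also transcribes glycolytic genes strongly, so muscle markers were read beside these values. The 15 markers summed to 931 and 979 FPKM in mutant-labelled libraries, against 688 and 683 FPKM in wild-type testes. Most of this difference came from Act87E. The median log2 fold change of the 14 tested muscle markers was 0.14, with 8 above 0 and 6 below. Act87E, an actin gene and the most abundant of them, rose (550 and 512 FPKM, against 311 and 322 FPKM; limma adjusted p = 0.00975), sls fell (11.5 and 14.3 FPKM, against 25.4 and 28.1 FPKM; limma adjusted p = 0.0247), and 12 of 14 tested markers did not pass. With the length trend removed the log2 fold change of sls was 0.06 (limma adjusted p = 0.783). The myosin heavy chain gene Mhc, a defining marker named after its values were seen, stood at 10.4 and 16.5 FPKM, against 13.8 and 16.8 FPKM. No muscle marker except Act88F was listed at 0 in any library. Among the germline markers, ocn and Mst87F rose (limma adjusted p = 0.00556 and 0.0121), Mst87F without a call under quantile normalization (log2 fold change 0.10), and bol fell (limma adjusted p = 0.0237; log2 fold change -0.31, and 0.09 with the length trend removed). Germline markers summed to 20251 and 19258 FPKM, against 13254 and 12184 FPKM, and without ocn and Mst87F the other 10 summed to 2711 and 2888 FPKM, against 3138 and 3023 FPKM. The median log2 fold change of the 11 tested germline markers was -0.14, with 5 above 0 and 6 below. The part of these markers in the enzyme values was not tested.

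**Figure D4:**
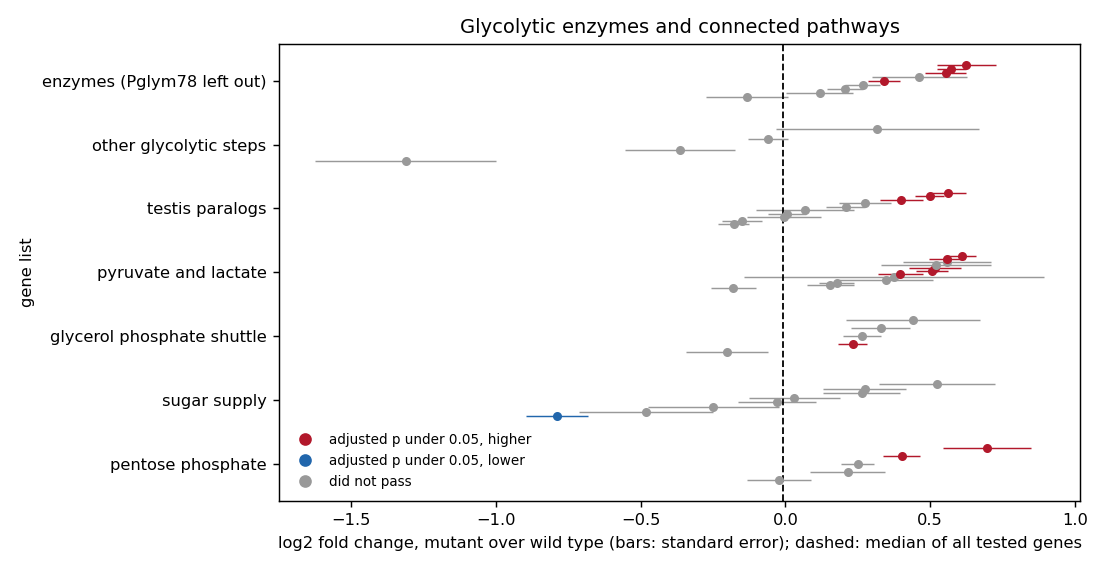
Log2 fold change of mutant-labelled libraries over the wild-type libraries, as deposited, for each tested gene of the enzymes and of 6 connected lists, with the limma standard error as bars and the median of all tested genes as a dashed line. Among the genes of the 6 lists, 11 passed as higher and Treh alone as lower, and 32 did not pass. Under scaling to the FPKM sum 1 passed as higher and 5 as lower, against 588 and 2042 of all 10784 tested genes.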

How the data were processed

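Values deposited by the authors are FPKM of each gene plus 2 bounds of its 95% interval, per the file headers. TopHat and Cufflinks on dm6 made them, per the submitters' processing notes; versions, settings, annotation and strandedness were not found in those notes. Of 16745 entries in a library, 380 belonged to 145 names listed more than once and were added up by name. FPKM is relative to transcript length and library total, so changes in abundant or long transcripts move other genes. Fragment numbers were derived from each interval as (2 × FPKM / (upper bound - FPKM)) squared, an estimate that holds counting error only.

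Genotypes were compared with limma (version 3.58.1, R 4.3.3; lmFit, then eBayes using a mean-variance trend) on log2(FPKM + 1), over all 10784 genes averaging 1 FPKM or more, with p-values adjusted by Benjamini-Hochberg and called under 0.05. On this scale fold changes of low genes are understated. Paralog ratios used exact permutation tests (SciPy 1.17.1). P-values measure the spread between these libraries, and for limma the spread of each gene is drawn partly from other genes of similar level.

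The 10 enzymes and the lists were chosen with earlier results of these data known. Of 95 list names, 91 were found, 6 of them by synonym. Named genes were the 10 enzymes, all testis paralogs, Hex-A, Hex-C, Pfk, fbp, and up to 4 called genes per list with the smallest adjusted p; others are stated. Of muscle, germline, accessory gland, ejaculatory duct and fat body markers, the last 2 lists summed to 11.6 and 21.0 FPKM and to 11.1 and 14.1 FPKM in the libraries labelled mutant, against 18.1 and 18.3 FPKM and 12.1 and 13.1 FPKM in the wild type. Loci and exons came from the Ensembl BDGP6 annotation, whose starts and ends equalled those of the 10 deposited loci. Sequences were not analysed here.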

Additional observations from a re-analysis of the deposited data

How the results depend on the processing

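The 10 enzyme genes were refitted under 15 alternatives, and scaling to the FPKM sum was chosen after the data were seen. As deposited, 4 were called higher; 2 were with quantile normalization and with scaling to the FPKM sum, 0 without a variance trend, and 0 in every run that left out 1 library. None was called lower in any run. Their median log2 fold change of 0.30 became 0.083 with quantile normalization and 0.014 with scaling to the FPKM sum. Signs turned for Pglym78 without mutant replicate 2 (range with 1 library left out -3.60 to 1.06), PyK without wild type replicate 1 (range -0.287 to 0.0212), Pgk (-0.16), Eno (-0.023) and Pgi (-0.083) with scaling to the FPKM sum, and Ald (-0.0063) and Pgi (-0.053) with quantile normalization. The Pglym87 to Pglym78 ratio turned to -0.46 without mutant replicate 2 (range with 1 library left out -0.46 to 4.10). Over all genes, 1229 higher and 935 lower became 494 and 609 without a variance trend and 588 and 2042 with scaling to the FPKM sum, 0 to 12 higher and 0 to 251 lower with 1 library left out. Quantile normalization gave 849 higher and 982 lower, so the higher share of calls was 46.4% against 56.8%, and 64.7% with median scaling, 44.8% without a variance trend and 64.3% with a replicate block. Of the connected lists, 11 higher and 1 lower became 4 and 2 (quantile normalization), 7 higher (length trend removed), 1 and 5 (FPKM sum) and 0 and 0 (no variance trend, and each run with 1 library left out). The cause was not tested. Differences between replicates 1 and 2 correlated at -0.05 across genes between genotypes, so no shared effect of replicate number was seen. Whether the libraries were prepared in pairs cannot be read from this value. With a replicate block 3 enzyme genes were called (Gapdh1 had a limma adjusted p of 0.0508), 7 list genes were higher and 596 genes in all were lower.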
